A study of Homo sapiens with 4 samples.

Results

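TRiC, also called CCT, is the chaperonin of the cytosol. Its subunit genes TCP1, CCT2, CCT3, CCT4, CCT5, CCT6A, CCT7 and CCT8 were taken by gene symbol from the platform annotation, with no measured value entering the choice. These 8 genes of 19090 named genes were measured by 13 of the 28264 probes on the array. TCP1, CCT3, CCT6A and CCT8 had 1 probe each, CCT2, CCT4 and CCT5 had 2, and CCT7 had 3. Where a gene had several probes, they are called brightest, middle and dimmest by their mean over the arrays.

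The subunits were compared between TOV112D cells that received the HOXD10 plasmid (HD) and control TOV112D cells (ND), with 2 single-colour arrays in each group. TOV112D is an established human epithelial ovarian cancer cell line, and both groups are this line after transfection. The figure legends of the study give ND as cells with the empty plasmid, whereas its methods call them mock-transfected. No source says whether the arrays of a group came from separate transfections, and the slide list names both alike, so each p-value covers no more than the spread between arrays, possibly a technical one. The cells were measured in bulk, so fewer cells carrying a transcript and less of it per cell cannot be told apart.

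TRiC is a barrel of stacked rings in which each ring contains all of these subunits side by side. Unfolded proteins enter its cavity, are closed in when the subunits bind and hydrolyse ATP, and leave folded. It is best known for folding actin and tubulin, together with WD40-repeat proteins such as the G protein beta subunits and the mitotic activator CDC20. Prefoldin hands nascent actin and tubulin to it, and HSP70 passes on other chains.

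The values are normalized intensities, a linear measure of brightness, and the lowest value in the table is 50. The arrays had a common median of 361. The HOXD10 probe was at 50 on all 4 arrays, and since the sources used here do not place it relative to the plasmid insert, it checks nothing about the transfection. The study itself reports higher HOXD10 mRNA by qPCR and protein by western blot in TOV112D cells given the plasmid. Of 8 epithelial markers, KRT7 and CDH1 were at 50 on all 4 arrays, KRT8 and EPCAM were higher in HD and KRT19 and CLDN4 lower (limma, adjusted p = 0.0250 to 0.0449), with the same signs after quantile and cyclic loess normalization. EPCAM was at 1767 and 1469 in HD and 378 and 360 in ND. Of 7 ovarian and Mullerian markers, MUC16 was at 50 throughout. At the brightest probe of each, 5 were lower in HD and 1 higher, with a median log2 fold change of -0.21. An adjusted p under 0.05 was passed by 0 of them with limma (1 an unadjusted one). Their summed level was 793 to 869 in HD and 1277 to 1333 in ND. The immune marker LYZ was at 50 throughout. Of 6 immune markers, PTPRC alone passed and was higher in HD, with 277 and 250 against 81.1 and 99.1 in ND (limma, adjusted p = 0.0420), while a second PTPRC probe was at 50 throughout and the summed level of the 6 was 2380 to 2511 in HD and 2826 to 3606 in ND. At the brightest probe of each gene, 0 of 6 fibroblast and 0 of 5 endothelial markers passed an adjusted p under 0.05 with limma (1 and 0 an unadjusted one). The fibroblast marker LUM was bright there, with 33247 and 26472 in HD and 13461 and 13744 in ND, and passed after quantile (1.60, limma, adjusted p = 0.0215) and cyclic loess normalization (1.64, limma, adjusted p = 0.00415). A dimmer LUM probe passed as deposited (0.80, limma, adjusted p = 0.0458), as did one of COL1A2 at 74.8 and 71.5 in HD and 50 on both ND arrays (limma, adjusted p = 0.0343). The summed level of the 6 fibroblast markers was 58453 to 70486 in HD and 55820 to 63386 in ND. The part of any such markers in the TRiC values was not tested.

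As deposited, few TRiC probes passed an adjusted p under 0.05, and the calls depended on the scaling between arrays. All 13 probes lay within 2-fold, as did 85.7% of all probes. Their log2 fold changes (HD minus ND) had a median of -0.11 and a range of -0.64 to 0.95, beside a median of -0.02 over all probes. The 95% intervals of CCT6A (to 1.38), CCT2 dimmest (to -1.22) and CCT7 brightest (to -1.06) reached past 2-fold. Of the 13 probes, 1 was lower in HD and 0 were higher at an adjusted p under 0.05 (limma, Benjamini-Hochberg over all probes), beside 7.19% of all probes lower and 6.65% higher. A share of 1 in 13 is near that background. After quantile normalization 0 were lower and 6 higher with a median of 0.43. Cyclic loess normalization gave 0 lower and 8 higher with a median of 0.44. Scaling to the 75th percentile left the median at -0.11 and gave 5 lower and 2 higher, beside 18.5% and 15.1% of all probes. At an unadjusted p under 0.05, 7 of the 13 passed, 5 lower and 2 higher, as did 35.7% of all probes. The study required a 2-fold change in either direction and an unadjusted p under 0.05. By these criteria 0 of 13 passed, against 6.27% of all probes lower and 6.11% higher.

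Both HD arrays lay below both ND arrays for 6 TRiC probes, both lay above for 3, and the groups overlapped for 4. Over all probes, 34.8% were separated with HD below and 24.9% with HD above. The separated probes were those of CCT7, which had all 3 below, the dimmest probe of CCT2, the brightest of CCT4 and the probe of CCT3 below, and TCP1, CCT6A and the dimmest probe of CCT5 above. Each gene represented by its brightest probe gave 8 values with a median of 0.06, 4 below 0 and 4 above, of which 0 passed an adjusted p under 0.05 with limma and 3 an unadjusted one. Among all 19090 genes taken this way, 37.9% passed the unadjusted p, and 7.97% were lower and 6.67% higher at the adjusted one.

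**Figure D1:**
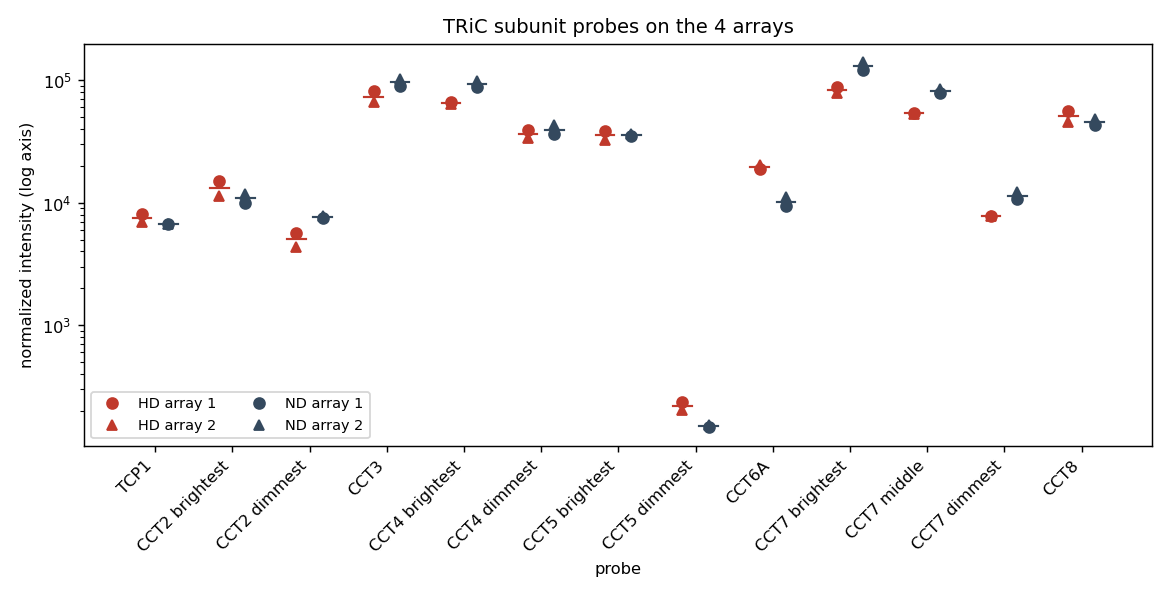
Normalized intensity on a log axis (vertical) of the 13 TRiC probes (horizontal), HD arrays in red to the left of ND arrays in dark blue, circles for array 1, triangles for array 2 and a short line at the group mean. CCT7 is lower in HD on all 3 probes, and CCT6A is higher, with 18761 and 20474 in HD against 9341 and 11078 in ND.

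CCT7, the eta subunit, held the only call. Its middle probe read 53705 and 53261 in HD and 78798 and 84898 in ND, and the groups did not overlap. The mean was 53483 ± 314 in HD and 81848 ± 4314 in ND (SD, n = 2 each), a ratio of 0.654. The log2 fold change was -0.61 with a standard error of 0.05 and a 95% confidence interval of -0.79 to -0.44 (limma, adjusted p = 0.0394). It turned to 0.18 after quantile and 0.16 after cyclic loess normalization, which align the arrays with each other across the whole range of brightness.

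The other probes of CCT7 had fold changes of nearly the same size. The brightest read 88459 and 79149 in HD and 120599 and 140014 in ND, a log2 fold change of -0.64 ± 0.12 (SE; limma, adjusted p = 0.0793). The dimmest read 7827 and 7765 in HD and 10745 and 12111 in ND, a log2 fold change of -0.55 ± 0.08 (SE; limma, adjusted p = 0.0564). On these probes too every HD array was below every ND array. The sign of the brightest turned under quantile (0.22) and cyclic loess normalization (0.24), whereas that of the dimmest was below 0 under all 14 alternatives run for it, at -0.64 to -0.20. CCT7 has 2 pseudogenes named after it in RefSeq, and since the probe sequences were not used here, their share in these signals is unknown.

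CCT6A, the zeta subunit of most tissues, had the highest fold change of the 13 probes. It read 18761 and 20474 in HD and 9341 and 11078 in ND, and every HD array was above every ND array. The mean was 19617 ± 1211 in HD and 10210 ± 1229 in ND (SD, n = 2 each), a ratio of 1.93. The log2 fold change of 0.95 had a standard error of 0.12 and a 95% confidence interval of 0.51 to 1.38, and did not pass with limma (adjusted p = 0.0522, unadjusted p = 0.00804). It was above 0 under all 14 alternatives run for it, at 0.82 to 1.39, and passed an adjusted p under 0.05 under 6 of them. RefSeq lists 5 pseudogenes named after CCT6A, 2 of them transcribed.

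Within an array, the distance between CCT6A and the middle probe of CCT7 does not depend on a common scale factor. On the log2 scale CCT6A minus CCT7 was -1.52 and -1.38 on the HD arrays and -3.08 and -2.94 on the ND arrays, a difference of 1.56. With 2 arrays against 2 the smallest two-sided p of an exact permutation test is 0.333, and that was its value here. The pair joins the highest fold change and the only call, so a wide distance follows from the choice. Scaling across brightness moved both, to log2 fold changes of 1.33 and 0.18 after quantile normalization. After cyclic loess normalization they were 1.39 and 0.16. CCT6B, the zeta subunit of the testis, was dim, at 84.1 and 76.7 in HD and 65.1 and 67.7 in ND. Its log2 fold change was 0.27 ± 0.07 (SE; limma, adjusted p = 0.110), and it lies outside the 13 probes.

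The remaining subunits fell on either side of 0. TCP1, the alpha subunit, read 8032 and 6890 in HD and 6689 and 6738 in ND, a log2 fold change of 0.15 ± 0.10 (SE; 95% interval -0.20 to 0.50). CCT8, the theta subunit, read 56437 and 45211 in HD and 42997 and 48283 in ND, a log2 fold change of 0.15 ± 0.16 (SE; 95% interval -0.42 to 0.72). The HD arrays were above the ND arrays for TCP1, by a margin smaller than the spread between the HD arrays, and overlapped them for CCT8. CCT3, the gamma subunit, read 81243.5 and 65795 in HD and 90329 and 102821 in ND, a log2 fold change of -0.40 ± 0.16 (SE; 95% interval -0.96 to 0.16). None of these 3 passed an adjusted p under 0.05 (limma, adjusted p = 0.228 to 0.615; 0 passed an unadjusted p under 0.05), and their intervals reach beyond a change of 0.4 on the log2 scale in at least 1 direction. Under other scalings they did pass. CCT3 turned to 0.43 after quantile (limma, adjusted p = 0.0317) and after cyclic loess normalization (limma, adjusted p = 0.0388), and CCT8 moved to 0.84 (limma, adjusted p = 0.0334) and 0.85 (limma, adjusted p = 0.00841). TCP1 was at 0.36 after quantile (limma, adjusted p = 0.0832) and 0.44 after cyclic loess normalization (limma, adjusted p = 0.0444).

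CCT4, the delta subunit, and CCT5, the epsilon subunit, are among the stronger ATP binders of the ring in yeast. The brightest probe of CCT4 read 65824.5 and 63398 in HD and 88172 and 99054.5 in ND, a log2 fold change of -0.53 ± 0.08 (SE; limma, adjusted p = 0.0596). Its dimmest probe read 39252 and 33860 in HD and 36085 and 42777 in ND, a log2 fold change of -0.11 ± 0.14 (SE). Thus 1 probe separated the groups, with HD lower, and the other did not. After quantile normalization both had the opposite sign (0.29 and 0.56), as after cyclic loess normalization (0.28 and 0.54).

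The brightest probe of CCT5 read 38423.5 and 32761 in HD and 35238 and 36634 in ND, a log2 fold change of -0.02 ± 0.11 (SE; 95% interval -0.39 to 0.36). Its dimmest probe, a dim one, read 234 and 202 in HD and 146 and 153 in ND, a log2 fold change of 0.54 ± 0.10 (SE; limma, adjusted p = 0.0764). The groups overlapped on the first and were separated, HD higher, on the second. The sign of the brightest turned under quantile (0.62) and cyclic loess normalization (0.62).

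CCT2, the beta subunit, had probes that went apart. The brightest read 14935 and 11331 in HD and 9961 and 11658 in ND, a log2 fold change of 0.27 ± 0.20 (SE; limma, adjusted p = 0.475). The dimmest read 5646 and 4363 in HD and 7526 and 7804 in ND, a log2 fold change of -0.63 ± 0.17 (SE; limma, adjusted p = 0.128). The groups overlapped on the brightest and were separated, HD lower, on the dimmest. Within an array, the brightest minus the dimmest was 1.40 and 1.38 on the HD arrays and 0.40 and 0.58 on the ND arrays, a difference of 0.90 on the log2 scale (exact permutation test, two-sided p = 0.333, the smallest possible). The probes of CCT5 differed by 0.56 in their fold changes and those of CCT4 by 0.42, so no single log2 fold change was assigned to CCT2, CCT4 or CCT5.

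Short motifs were searched in the promoters of the subunits, to place the sequence beside the values. RefSeq (GRCh38.p14) gave 9 promoters of 300 bases around annotated starts, for 7 of the 8 genes. CCT6A was not among them. Shown are CCT7, which held the only call (chr2:73234058-73234357, plus strand), and TCP1 (chr6:159789553-159789852, minus strand) and CCT8 (chr21:29073599-29073898, minus strand), whose promoters held the same 7 letters. Capitals mark the motifs named after them.
CCT7: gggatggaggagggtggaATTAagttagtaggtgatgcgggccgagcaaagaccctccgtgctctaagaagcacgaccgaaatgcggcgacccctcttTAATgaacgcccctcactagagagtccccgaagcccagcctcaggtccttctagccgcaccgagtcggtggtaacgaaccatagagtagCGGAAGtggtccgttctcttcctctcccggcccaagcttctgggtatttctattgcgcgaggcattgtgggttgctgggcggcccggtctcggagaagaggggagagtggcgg
TCP1: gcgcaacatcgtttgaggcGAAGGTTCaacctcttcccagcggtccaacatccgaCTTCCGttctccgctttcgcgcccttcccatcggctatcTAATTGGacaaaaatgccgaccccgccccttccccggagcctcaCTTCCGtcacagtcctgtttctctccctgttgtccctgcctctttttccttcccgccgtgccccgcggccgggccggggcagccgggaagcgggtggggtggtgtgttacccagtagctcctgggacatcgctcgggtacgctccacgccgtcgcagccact
CCT8: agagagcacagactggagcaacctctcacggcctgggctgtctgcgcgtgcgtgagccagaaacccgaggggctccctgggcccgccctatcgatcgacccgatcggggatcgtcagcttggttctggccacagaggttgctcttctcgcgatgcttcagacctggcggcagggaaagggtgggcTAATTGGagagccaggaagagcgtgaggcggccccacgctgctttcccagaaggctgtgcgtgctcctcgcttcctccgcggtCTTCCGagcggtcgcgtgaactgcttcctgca
On either strand, the motifs were TAAT, a core that many homeodomain proteins bind, and CCAAT, the box of the NF-Y factor. The others were CTTCCG, which ETS factors bind, CACGTG, the E-box of MYC, and the heat shock element as GAANNTTC or TTCNNGAA. A motif particular to HOXD10 was not searched.

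CCT7 held TAAT at bases 19 and 99 and CTTCCG at base 188, counted from 1 at the 5′ end. TCP1 held GAANNTTC at base 20 and CTTCCG at bases 56 and 139. In both TCP1 and CCT8, TAAT ran into CCAAT read from the other strand, as TAATTGG, where both motifs overlap. TAAT was in 5 of the 9 member promoters, beside 50.2% of the 35116 promoters of the same length, CCAAT in 4, beside 34.6%, and CTTCCG in 6, beside 19.5%. GAANNTTC was in 2, beside 6.77%, TTCNNGAA in 1, beside 7.74%, and CACGTG in 0, beside 7.26%. CCT2 and CCT4 each count with 2 overlapping or neighbouring starts. TAAT was present in CCT7, TCP1 and CCT8 alike. A match is a description of letters and no measure of binding.

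Most TRiC probes were bright, and bright probes were mostly lower in HD. Among the 3015 probes in the brightness range of the 12 brighter TRiC probes, the median log2 fold change was -0.51, and 21.5% were lower and 3.65% higher at an adjusted p under 0.05 with limma. Each TRiC probe was therefore set against the probes within 0.5 of its mean log2 intensity. Of the 13, 11 lay above the median of these equally bright probes, and all 8 genes did so on at least 1 probe. The exceptions were the dimmest probes of CCT2 and CCT7, and the median percentile was 79.6. With a window of 0.25 it was 78.5, and again 11 probes lay above. What makes bright probes lower in HD was not tested.

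CCT6A stood at the 95.2 percentile of 1016 equally bright probes, whose median log2 fold change was -0.42. CCT8 stood at the 90.3 percentile of 382 probes with a median of -0.79, and CCT3 at the 86.4 percentile of 221 with a median of -0.92. Thus CCT3 had a log2 fold change below 0 and yet was higher than most probes of its brightness. The middle probe of CCT7 was at the 68.1 percentile and its brightest at the 75 percentile, whereas the dimmest was at 38.0. The dimmest probe of CCT2 was lowest, at 27.4. These percentiles describe the probes and carry no test.

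**Figure D2:**
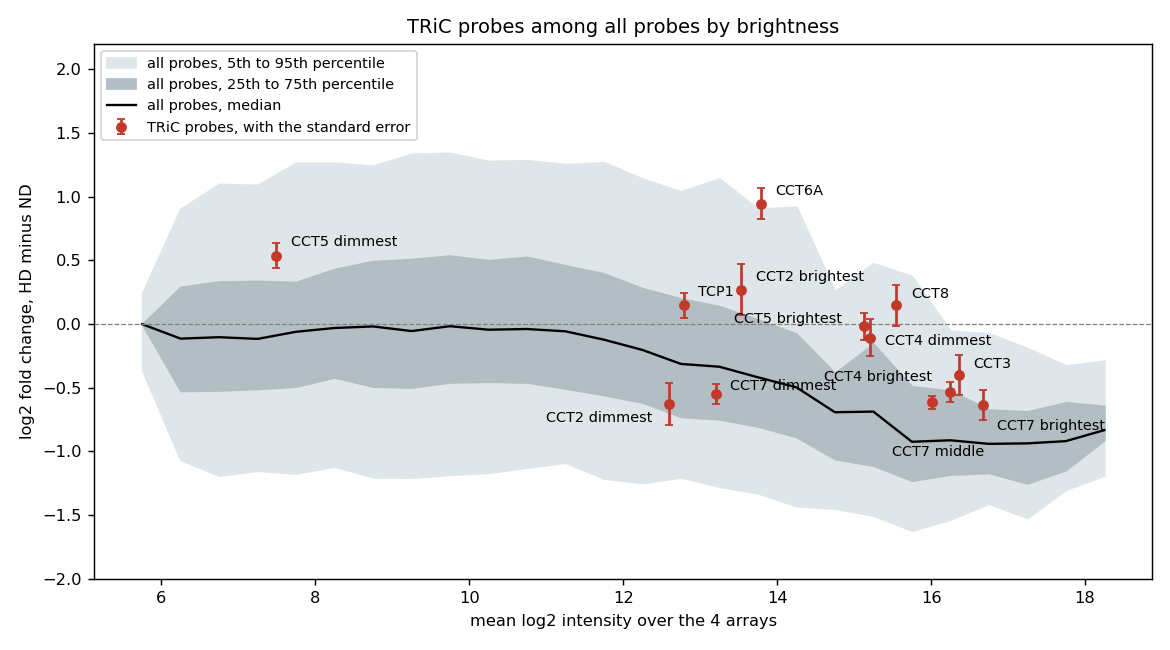
Log2 fold change, HD minus ND (vertical), against mean log2 intensity over the 4 arrays (horizontal), with the 13 TRiC probes in red with standard errors and the median, the middle range and the wide range of all probes as a line and grey bands. The median line falls below 0 for bright probes, and 11 of the 13 TRiC probes lie above it.

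The direction of 6 of the 13 probes turned with the scaling between arrays. As deposited, 8 probes were below 0. After quantile normalization 2 were below 0 and 6 were higher in HD at an adjusted p under 0.05 with limma, beside 9.73% of all probes lower and 11.7% higher. These were CCT3, CCT4 dimmest, CCT5 brightest, CCT6A, CCT7 brightest and CCT8. After cyclic loess normalization 8 were higher, beside 13.9% of all probes lower and 17.6% higher. CCT6A then had a log2 fold change of 1.39 (limma, adjusted p = 0.00528) and CCT8 one of 0.85 (limma, adjusted p = 0.00841). After scaling each array to its 75th percentile, the centring that the methods name, the signs were those of the deposited values, and 5 probes were lower and 2 higher, beside 18.5% and 15.1% of all probes.

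**Figure D3:**
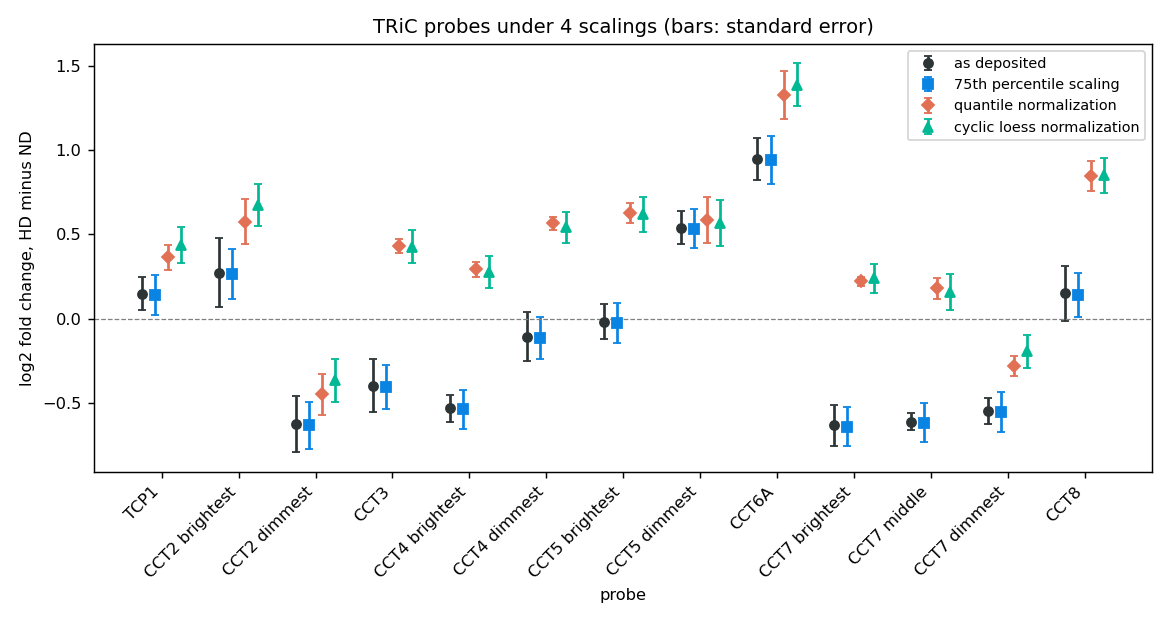
Log2 fold change, HD minus ND (vertical), of the 13 TRiC probes (horizontal) as deposited and after 75th percentile scaling, quantile and cyclic loess normalization, with standard errors. The signs of CCT3, both CCT4 probes, CCT5 brightest, CCT7 brightest and CCT7 middle turn under quantile and cyclic loess normalization, whereas CCT6A is above 0 under each.

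The partners of TRiC were described with each gene at its brightest probe. Over all 19090 genes taken this way, 7.97% were lower and 6.67% higher at an adjusted p under 0.05, and 6.83% and 6.16% by the study's criteria. Of the 6 prefoldin subunits, 2 were lower and 0 higher at that level with limma, with a median of -0.56. PFDN5 read 125281 and 113473 in HD and 286142 and 301302 in ND (log2 fold change -1.30, limma, adjusted p = 0.0340), below 0 also after quantile (-0.40) and cyclic loess normalization (-0.29). PFDN4 read 11812 and 11755 in HD and 19500 and 22025 in ND (-0.81, limma, adjusted p = 0.0430), with the same sign under both, but a dimmer probe of it was higher in HD, at 290 and 319 against 162 and 164 (0.90, limma, adjusted p = 0.0369). The calls changed with the scaling, with 3 lower and 0 higher after 75th percentile scaling. Quantile normalization left 1 of the 6 lower (PFDN4) and made 2 higher, and cyclic loess normalization gave 0 lower and 1 higher, VBP1 (0.58, limma, adjusted p = 0.0152), while PFDN5 no longer passed (limma, adjusted p = 0.0836 and 0.109).

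Of 7 phosducin-like and other cochaperones of TRiC, 1 was lower and 0 higher as deposited, and 1 was lower and 2 higher after either quantile or cyclic loess normalization. UXT, a prefoldin-like protein, read 21970 and 20645 in HD and 47040 and 54969 in ND (-1.26, limma, adjusted p = 0.0404), and stayed below 0 after quantile and cyclic loess normalization. PDCL, which works with TRiC to assemble G protein beta and gamma subunits, passed the study's criteria, with 2520 and 2169 in HD and 1028 and 1217 in ND (1.06, limma, adjusted p = 0.0544), whereas a dimmer probe of it had a log2 fold change of -0.00083. Among the 3 chaperonin-like BBS proteins, BBS12 was higher in HD, with 167 and 146 against 64.1 and 66.5 in ND (1.26, limma, adjusted p = 0.0369), also after quantile and cyclic loess normalization. The mitochondrial chaperonin, HSPD1 with its lid HSPE1, gave 0 calls of 2 with limma (1 of 2 at an unadjusted p under 0.05), with log2 fold changes of 0.12 and -0.68. HSPD1 was higher after quantile (0.98, limma, adjusted p = 0.0234) and cyclic loess normalization (1.04, limma, adjusted p = 0.00560). The brightest HSPE1 probe turned to 0.22 and 0.36, which did not pass. As deposited, dimmer probes of HSPE1 were at -1.20 (limma, adjusted p = 0.0501) and -0.82 (limma, adjusted p = 0.128), and one of HSPD1 at 0.13.

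The cofactors that take tubulin over from TRiC and pair its chains had a median of -0.97 over 6 genes, against -0.44 after quantile and -0.42 after cyclic loess normalization. As deposited, 2 were lower and 0 higher with limma, and the study's criteria took 3 as lower. TBCA, which holds beta-tubulin, read 63814 and 58060 in HD and 157393 and 171858 in ND (-1.43, limma, adjusted p = 0.0344). TBCC read 12377 and 10722 in HD and 22476 and 23702 in ND (-1.003, limma, adjusted p = 0.0430), and ARL2, a small GTPase of this pathway, 16785 and 13797.5 in HD and 30597 and 34928 in ND (-1.10, limma, adjusted p = 0.0550). All 3 were below 0 after quantile and cyclic loess normalization too, at -0.62 to -0.53. Of the 6, 5 were below 0 under each scaling. Under both of these normalizations 3 passed an adjusted p under 0.05 as lower with limma, and 0 passed the study's criteria.

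Of 17 tubulins, 3 were lower in HD and 0 higher with limma, and the median was -0.48 as deposited, -0.07 after quantile and 0.01 after cyclic loess normalization. TUBA4A read 241 and 209 in HD and 441 and 449 in ND (-0.99, limma, adjusted p = 0.0420). TUBB4A (-0.50) and TUBG2 (-0.36) were the other calls, and the 3 kept their sign under both normalizations, though TUBG2 no longer passed (limma, adjusted p = 0.0901 and 0.102). The balance of calls turned, with 2 tubulins lower and 4 higher after either. Of 6 actins, 1 was higher in HD as deposited and 3 were after either normalization. ACTA2, smooth muscle actin, read 20656 and 21380 in HD and 4418 and 5291 in ND (2.12, limma, adjusted p = 0.0339), and was higher under both as well. The abundant actins ACTB and ACTG1, the main TRiC clients of most cells, did not pass as deposited, at -0.26 and 0.09 on the log2 scale. They were higher after quantile (0.61 and 0.92, limma, adjusted p = 0.0159 and 0.0220) and cyclic loess normalization (0.79 and 0.98, limma, adjusted p = 0.00699 and 0.00623).

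Of 19 measured WD40 and other clients, 1 was higher in HD and 0 lower with limma as deposited, with a median of -0.21, and 7 were higher and 2 lower after either quantile or cyclic loess normalization. GNB4, a G protein beta subunit, read 9045 and 9462 in HD and 2263 and 2619 in ND (1.93, limma, adjusted p = 0.0331), with 2.08 after quantile and 2.13 after cyclic loess normalization. A dim second probe of GNB4 went the other way without passing, at 290 and 230 in HD and 306 and 301 in ND (-0.23). GNB1 (0.70) and PLK1 (0.75) followed by adjusted p and did not pass as deposited, but did after quantile (limma, adjusted p = 0.0159 and 0.0342) and cyclic loess normalization (limma, adjusted p = 0.00460 and 0.00855). CDC20 was at 34558 and 31227 in HD and 34976 and 41182 in ND, a log2 fold change of -0.21, which turned to 0.43 after both (limma, adjusted p = 0.0192 after quantile and 0.0287 after cyclic loess normalization).

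**Figure D4:**
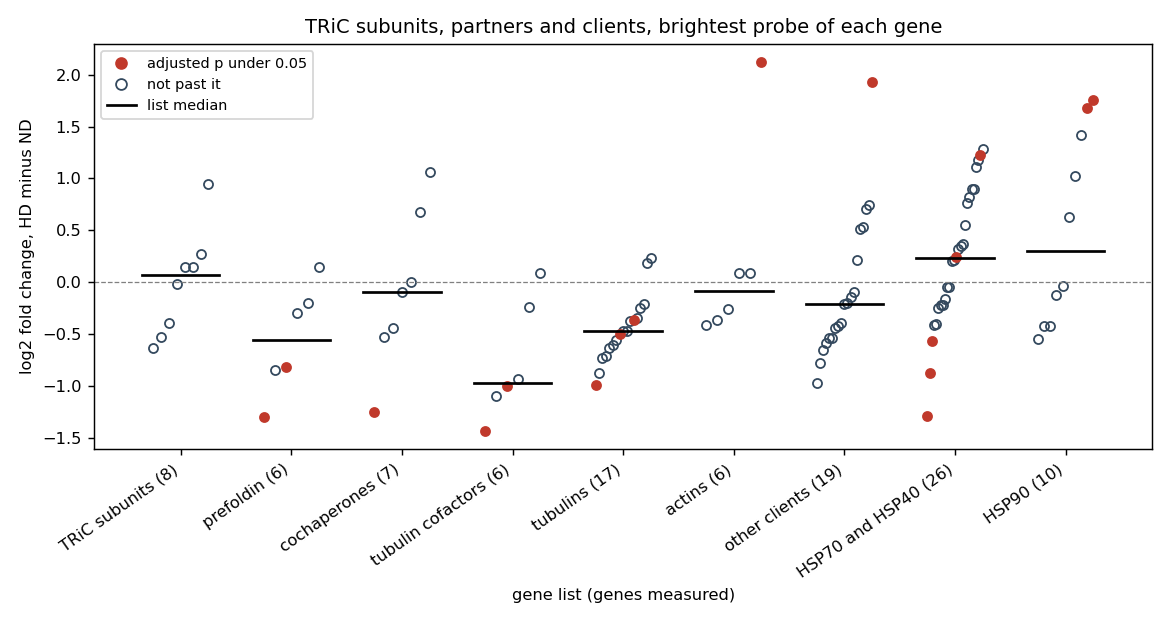
Log2 fold change, HD minus ND (vertical), of the brightest probe of each gene in TRiC and 8 lists of its partners and clients (horizontal, with the genes measured), filled where the adjusted p is under 0.05, with the list median as a line. Values are as deposited, where the median is 0.06 for TRiC and -0.97 for the tubulin cofactors (-0.44 after quantile normalization) and 0 of the 8 TRiC values are filled.

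The other cytosolic chaperones were described in the same way. Of 26 HSP70 and HSP40 genes with their partners, 3 were lower and 2 higher with limma as deposited, with a median of 0.23. Quantile normalization gave 2 lower and 10 higher with a median of 0.44, and cyclic loess normalization 2 lower and 13 higher with a median of 0.47. HSPA4, an HSP70 exchange factor, read 64611 and 64017 in HD and 25371 and 29800 in ND (1.23, limma, adjusted p = 0.0400). HSPA4L was dim, at 60.3 and 58.2 in HD and at 50 on both ND arrays (limma, adjusted p = 0.0454). DNAJB1 (-0.57), BAG1 (-1.29) and HSPA2 (-0.88) were lower, and all 5 kept their sign after quantile and cyclic loess normalization. DNAJB1 then no longer passed, at -0.23 and -0.13 (limma, adjusted p = 0.120 and 0.430), nor did HSPA4L (limma, adjusted p = 0.312 and 0.113). A dimmer probe of BAG1 stood at 0.11 as deposited. Of 10 HSP90 genes and cochaperones, 2 were higher and 0 lower as deposited, with a median of 0.30, and 6 were higher and 0 lower after quantile (median 0.89) and cyclic loess normalization (median 1.10). CHORDC1 read 4104 and 4488 in HD and 1180 and 1365 in ND (1.76, limma, adjusted p = 0.0355), and FKBP5 6171 and 5430 in HD and 1623 and 2007 in ND (1.68, limma, adjusted p = 0.0424), and both were higher after either normalization. PTGES3 followed without passing (-0.42, limma, adjusted p = 0.0553), and turned to 0.40 after quantile and 0.38 after cyclic loess normalization.

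Genes that heat shock factor 1, MYC and cell division are known to drive were listed because these raise TRiC subunits or their partners in other settings. Of 19 measured HSF1 targets, several of them counted above, 1 was lower and 2 were higher as deposited, with a median of -0.12. After quantile normalization 1 was lower and 8 higher (median 0.51), and after cyclic loess normalization 0 were lower and 11 higher (median 0.63). HSF1 itself had a log2 fold change of -0.15, and its binding partner HSBP1 one of -0.44 (limma, adjusted p = 0.0426) that turned to 0.07 after cyclic loess normalization. Of 19 genes for MYC and ribosome making, 1 was lower, SRM with -0.69 (limma, adjusted p = 0.0482), and 0 higher, against 2 lower and 3 higher after quantile and 2 lower and 6 higher after cyclic loess normalization. MYC had -0.24. Of 20 proliferation genes, 3 were lower, RRM2 (-0.996), PCNA (-1.45) and AURKB (-1.09), and BUB1 was higher (0.92). Quantile normalization gave 2 lower and 6 higher and cyclic loess normalization 2 lower and 8 higher, and RRM2, at -0.29 and -0.31, no longer passed (limma, adjusted p = 0.100 and 0.0950). The median was -0.08 for the MYC list and -0.19 for the proliferation list as deposited, but above 0 for the MYC list after quantile (0.23) and for both after cyclic loess normalization (0.25 and 0.06).

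Genes with long transcripts were listed because their signals can depend on the quality of the RNA. Of 50 measured, 12 were higher in HD and 1 lower with limma, with a median of 0.42 as deposited, 0.47 after quantile and 0.45 after cyclic loess normalization. PCLO (-1.87), SYNE1 (0.58) and UBR4 (0.41) had the lowest adjusted p. After quantile normalization 21 were higher and 2 lower, beside 11.7% and 9.73% of all probes. After cyclic loess normalization 26 were higher and 3 lower, beside 17.6% and 13.9%. As deposited 15 of the 50 were below 0 and 10 overlapped between the groups. Of all 19090 genes at their brightest probe, 10194 were below 0 and 7134 overlapped. Their part in the TRiC values was not tested.

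The 2 arrays in each group limit these comparisons. Leaving out any 1 of the 4 arrays leaves 1 array in its group. The middle probe of CCT7 then had a log2 fold change of -0.67 to -0.56.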

How the data were processed

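Total RNA of TOV112D cells was amplified to antisense RNA, which carried the dye Cy5 on 4 single-colour arrays. The authors deposited 1 normalized intensity for each probe, on a linear scale with a lowest value of 50. The methods name Rosetta Resolver and centring at the 75th percentile, but the deposited arrays share their median. Whether background was corrected is not stated there.

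HD and ND were compared on the log2 of the deposited intensity with limma 3.58.1 (lmFit, eBayes; R 4.3.3) in a single fit of 28264 probes, with Benjamini-Hochberg adjustment, after a test on simulated data. Prior degrees of freedom were 0.543 and residual ones 2. Intervals are 95% intervals of this fit. Probes were named from the platform annotation, with 25893 having a symbol and 2371 none.

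All member probes are named, as are called genes of short lists. In longer lists up to 3 genes with the smallest adjusted p and up to 3 called the other way are named. CDC20, ACTB, ACTG1, HSF1, MYC, HSPD1, HSPE1, VBP1, several second probes and the cell markers given were named outside this rule, after their values were seen. The members, the 21 other lists and the tests were chosen with earlier results of these data known. The alternatives covered scaling, 50 added before the log2, dropping dim probes, variance models, a replicate block, the probe taken for a gene and leaving out each array.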

Additional observations from a re-analysis of the deposited data

How the results depend on the processing

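As deposited, 1 of 13 TRiC probes passed an adjusted p under 0.05, 0 passed the study's criteria and the median log2 fold change was -0.11. At an adjusted p under 0.05, quantile normalization gave 6 calls and cyclic loess normalization 8. The count was 7 after 75th percentile scaling and under either filter on probes at the lowest value (on at least 2 or on all 4 arrays), and 3 with an intensity trend in eBayes. It was 0 with robust eBayes, with the replicate block, with 1 probe a gene and without any 1 array (lowest 0, highest 0), where CCT7 lost its call. By the study's criteria 1 probe, CCT6A, passed after either of these normalizations, and 0 to 1 when 1 array was left out (1 without ND array 2). Quantile normalization put the median at 0.43, cyclic loess normalization at 0.44 and 1 probe a gene at 0.065, and it was -0.23 to 0.01 when 1 array was left out. The cause of these shifts was not tested. The adjusted calls over all probes moved likewise. The deposited 2033 lower and 1879 higher became 2751 and 3300 after quantile, 3929 and 4973 after cyclic loess and 5216 and 4256 after 75th percentile scaling. They were 5477 and 4042 or 6069 and 4257 under the filters, 2364 and 2164 with an intensity trend and 293 and 271 with robust eBayes. The filters put the median of all probes at -0.12 and -0.13.

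Log2 fold changes turned after quantile normalization for CCT3 (0.43), CCT4 brightest (0.29) and dimmest (0.56), CCT5 brightest (0.62), and CCT7 brightest (0.22) and middle (0.18). After cyclic loess normalization they turned for CCT3 (0.43), CCT4 brightest (0.28) and dimmest (0.54), CCT5 brightest (0.62), and CCT7 brightest (0.24) and middle (0.16). When 1 array was left out, the sign of 3 probes near 0 turned, with values of -0.011 to 0.31 for CCT8, -0.13 to 0.10 for CCT5 brightest and -0.23 to 0.015 for CCT4 dimmest. The scalings of the other gene lists were added after seeing the data.

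The replicate numbers were not found to pair the arrays, since the deviations of HD array 1 and ND array 1 from their group means correlated at -0.323 over 21966 probes. With the replicate block 0 TRiC probes and 0 of all probes passed an adjusted p under 0.05 with limma (4 and 7701 at an unadjusted p under 0.05). With the crossed pairing, chosen after seeing the data, 0 TRiC probes and 0 of all probes passed (7 and 9979 at an unadjusted p under 0.05). With arrays, the number of arrays sets the precision, and no TRiC probe was at the lowest value on any of them.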
